A study of Mus musculus with 12 samples.

Results

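The Kcnq1ot1 domain is a cluster of imprinted genes on distal mouse chromosome 7, and 5 of its genes were described here among the 22180 genes measured: Kcnq1ot1, Phlda2, Slc22a18, Cdkn1c and Kcnq1. Each was represented by the probe set annotated to its symbol alone with the highest mean over 12 arrays, and each had 1 such probe set. The 5 genes were chosen by their log2 differences between sister clones, so differences between clones are given for them as descriptions, with no test. Differences between the labelled groups were tested, although results of these data were known when the genes were chosen.

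Genomic imprinting is the expression of a gene from the chromosome of 1 parent only. In this domain the control region is unmethylated on the paternal chromosome, where it serves as the promoter of Kcnq1ot1, a long non-coding RNA transcribed antisense to Kcnq1. The RNA is known for silencing its neighbours on the same chromosome together with Polycomb and histone methyltransferase complexes, whereas DNA methylation of the region on the maternal chromosome keeps the RNA off and the coding genes on. Of the coding genes, Phlda2 encodes a pleckstrin homology domain protein that restrains placental growth, Slc22a18 a transporter of the organic cation family, Cdkn1c the cyclin-dependent kinase inhibitor p57, and Kcnq1 a voltage-gated potassium channel subunit. Arrays measure RNA of both parental chromosomes together and do not separate alleles.

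The cells belonged to K3, a line of mouse embryonic stem (ES) cells, in a study of genes that depend on ERRb, the nuclear receptor encoded by Esrrb. Arrays labelled WT/mock came from cells with an intact Esrrb gene, arrays labelled KO/mock from Esrrb knockout cells, and arrays labelled KO/ERRb-wt from knockout cells transduced with a lentivirus expressing ERRb; the sources used here do not give what the mock cells received or which promoter drives the transgene. All groups were grown in N2B27 medium with the inhibitors CH99021 and PD0325901 and LIF, and then spent 3 days in N2B27 with both inhibitors and doxycycline. Each label held 2 clones with 2 arrays each, WT/mock clones 5-2 and 5-5, KO/mock clones 8-3 and 8-4, and KO/ERRb-wt clones 12-1 and 12-3. The labels name the paired arrays of each clone biological replicates, without saying whether they came from separate cultures, so p-values measure only the spread between these samples, which may be technical.

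The promoters of Kcnq1ot1, Slc22a18 and Phlda2 are shown because the RNA and these coding genes lay on opposite sides of their sister clones in all 3 labels. Each sequence is the 250 bases before the start (GRCm38.p6), printed 5′ to 3′ on the strand of the gene with CG dinucleotides in capitals. RefSeq promoter entries matched 3 of the 5 genes, at chr7:143296548-143296797 on the minus strand for Kcnq1ot1, chr7:143473539-143473788 on the plus strand for Slc22a18 and chr7:143502525-143502774 on the minus strand for Phlda2.
Kcnq1ot1: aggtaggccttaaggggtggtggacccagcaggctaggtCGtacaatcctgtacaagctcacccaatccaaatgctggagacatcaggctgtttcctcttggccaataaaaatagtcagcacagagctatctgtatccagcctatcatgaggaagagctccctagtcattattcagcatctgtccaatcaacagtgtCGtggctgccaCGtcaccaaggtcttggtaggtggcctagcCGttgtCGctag
Slc22a18: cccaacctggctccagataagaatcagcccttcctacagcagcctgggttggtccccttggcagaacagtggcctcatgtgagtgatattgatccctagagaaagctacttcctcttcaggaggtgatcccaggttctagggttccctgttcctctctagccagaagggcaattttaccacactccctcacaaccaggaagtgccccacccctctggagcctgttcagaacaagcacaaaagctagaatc
Phlda2: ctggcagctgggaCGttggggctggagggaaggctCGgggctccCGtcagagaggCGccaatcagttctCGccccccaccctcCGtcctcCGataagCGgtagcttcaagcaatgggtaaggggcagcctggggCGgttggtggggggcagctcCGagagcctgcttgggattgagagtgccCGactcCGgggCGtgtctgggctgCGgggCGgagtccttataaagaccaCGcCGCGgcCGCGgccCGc
The Kcnq1ot1 window held 5 CG dinucleotides, and 55.6% of the 32851 promoters of the same length held at least as many. The Phlda2 window held 21, a number reached by 16.3% of promoters, and the Slc22a18 window held 0, where the median promoter held 6. The Kcnq1ot1 window also held 3 matches to CCAAT on either strand, a motif searched after the sequence had been seen, and 2.79% of promoters held at least as many. The Phlda2 window held 1 such match, as 33.8% of promoters did or exceeded. None of the 3 windows held TGCCGC, the hexamer recognised when methylated by the imprint-protecting factor Zfp57 and present in 8.68% of promoters. Nor did any hold AAGGTCA, the core of the ERRb motif, present in 4.08%. Both strands were searched, and these motifs do not overlap each other. Bases after the start were not searched, so nothing is read here about any part of the control region beyond the Kcnq1ot1 window.

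The deposited log2 levels ran from 1.59 to 13.6, with array medians of 5.00 to 5.07. With no detection call used here, a level near 5 cannot be set against background. Over 12 ES cell markers, including Pou5f1 and Sox2, array medians lay between 9.68 and 10.06. Dppa5a, also among the 12, had a mean of only 4.95 over the arrays. The targeted gene did not follow its labels: Esrrb measured 7.38 to 7.39 on the 4 WT/mock arrays, 7.41 to 8.00 on the KO/mock arrays and 6.50 to 6.99 on the KO/ERRb-wt arrays. Against KO/mock, Esrrb on the KO/ERRb-wt arrays had a log2 difference of -0.93 ± 0.13 (SE, adjusted p = 0.00436, limma), a call that ended when the arrays of a clone were averaged (adjusted p = 0.137, limma). The sources used here do not tell whether this probe set lies in the deleted part or in the transgene, and directions between labels below are therefore directions between arrays labelled so. Between KO/ERRb-wt and KO/mock, 30.4% of called probe sets were higher as deposited, 42.2% after quantile normalization and 21.5% with arrays centred on the median.

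Kcnq1ot1, the silencing RNA, was higher in clone 5-5 than in 5-2, in 8-4 than in 8-3, and in 12-3 than in 12-1. Its log2 levels were 6.48 and 6.29 in clone 5-2 and 7.21 and 7.08 in clone 5-5 of WT/mock. In KO/mock they were 6.58 and 6.45 in clone 8-3 and 7.36 and 7.50 in clone 8-4. In KO/ERRb-wt they were 6.93 and 7.03 in clone 12-1 and 7.36 and 7.25 in clone 12-3. The arrays of sister clones did not overlap in any of the 3 pairs; arrays lay apart and higher in the higher-numbered clone for 20.8%, 19.2% and 20.2% of all genes. The log2 differences were 0.76, 0.92 and 0.33, or 1.70-fold, 1.89-fold and 1.26-fold. By size these ranked 24th, 7th and 825th of 22180 genes.

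Phlda2, the placental growth regulator, went the other way, and by far more. Its log2 levels were 7.36 and 7.67 in clone 5-2 against 4.86 and 5.25 in clone 5-5. They were 7.77 and 8.28 in clone 8-3 against 4.76 and 5.03 in clone 8-4, and 6.80 and 6.71 in clone 12-1 against 4.98 and 5.32 in clone 12-3. In each label the lower clone lay near the array median of all probe sets and the higher clone well above it. No arrays of sister clones overlapped, as for 18%, 20.8% and 18.1% of all genes in this direction. The log2 differences of -2.46, -3.13 and -1.60 correspond to levels 5.51-fold, 8.77-fold and 3.03-fold lower in the higher-numbered clone, and each was the largest of 22180 genes in its pair. In bulk RNA, fewer expressing cells and less RNA per cell cannot be told apart.

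Slc22a18, the transporter gene beside Phlda2, followed it in direction with a smaller span. The log2 levels were 6.63 and 6.53 in clone 5-2 against 5.70 and 5.76 in clone 5-5. They were 6.29 and 6.32 in clone 8-3 against 5.58 and 5.80 in clone 8-4, and 5.96 and 6.16 in clone 12-1 against 5.69 and 5.65 in clone 12-3. Again no arrays of sister clones overlapped. The differences of -0.85, -0.61 and -0.39 ranked 17th, 65th and 398th by size, and the lower clones were 1.81-fold, 1.53-fold and 1.31-fold below their sisters.

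Cdkn1c, which encodes the cell cycle inhibitor p57, was also lower in the same clones. Its log2 levels were 5.62 and 5.72 in clone 5-2 against 5.22 and 5.38 in clone 5-5, and 5.91 and 5.95 in clone 8-3 against 5.37 and 4.95 in clone 8-4. In KO/ERRb-wt they were 6.02 and 5.97 in clone 12-1 against 5.64 and 5.58 in clone 12-3. The pairs did not overlap, with differences of -0.37, -0.77 and -0.38 that ranked 711th, 19th and 447th. All of these levels lay within about 1 log2 unit of the array median, with no background to set them against.

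Kcnq1, the channel gene that the RNA is transcribed through, was the dimmest of the 5, with a level above 31.1% of genes. It read 4.69 and 4.66 in clone 5-2 and 4.28 and 4.15 in clone 5-5, a difference of -0.46 without overlap. In the other pairs the arrays overlapped, at 4.47 and 4.41 against 4.58 and 4.33 in KO/mock and 4.50 and 3.98 against 4.66 and 4.41 in KO/ERRb-wt. The differences there were 0.02 and 0.29. Without 8-4 replicate 1 or 2 the first lay at -0.11 or 0.14 and without 12-1 replicate 1 or 2 the second at 0.56 or 0.033. Kcnq1 thus did not share the direction of the other coding genes in all 3 pairs.

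**Figure D1:**
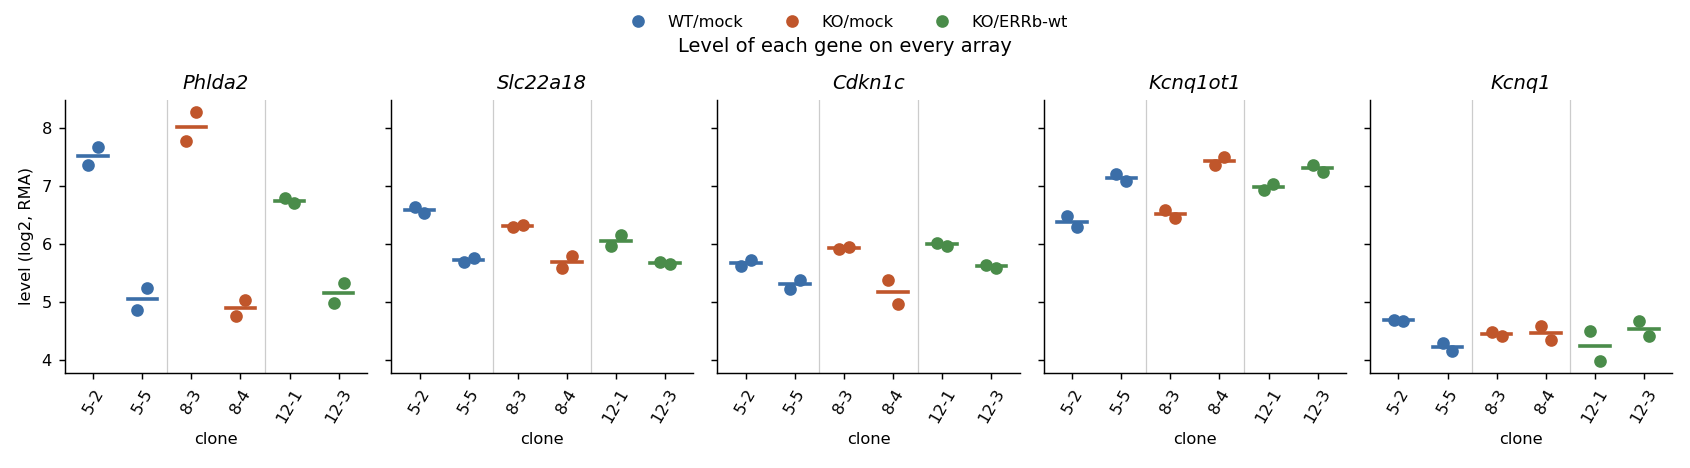
Log2 expression of the 5 genes by clone, 1 panel per gene, with 1 point per array, a bar at each clone mean and colours for the 3 labels. The Phlda2 arrays of clones 5-5, 8-4 and 12-3 lie between 4.76 and 5.32 and those of their sisters between 6.71 and 8.28, with Kcnq1ot1 in the opposite order within each label.

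Across the 6 clones, mean Phlda2 levels ran from 8.03 in clone 8-3 through 7.52 in 5-2 and 6.75 in 12-1 to 5.15 in 12-3, 5.05 in 5-5 and 4.89 in 8-4. The arrays of the 3 higher clones did not overlap, although the gap between 8-3 and 5-2 was smaller than the range within either clone, and the arrays of the 3 lower clones overlapped. Mean Kcnq1ot1 levels ran in nearly the reverse order, from 7.43 in clone 8-4, 7.31 in 12-3 and 7.15 in 5-5 to 6.98 in 12-1, 6.52 in 8-3 and 6.38 in 5-2. The arrays of 8-4 and 12-3 overlapped, as did those of 8-3 and 5-2. Clone 12-1 held an intermediate place in both orders, below the other high clones for Phlda2 and above them for Kcnq1ot1. For Slc22a18 the 3 higher clones were separated in the order 5-2, 8-3 and 12-1 (means 6.58, 6.30 and 6.06), and the arrays of 8-4, at 5.58 and 5.80, spanned those of the other low clones. For Cdkn1c the 2 highest clones were 12-1 and 8-3 (means 5.99 and 5.93), and clone 12-3, low for Phlda2, lay at 5.61, beside 5-2 at 5.67.

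Pearson correlations over the 6 clone means are given as a description, since the clones fell into a high and a low Phlda2 cluster. Phlda2 had r = 0.928 with Slc22a18, 0.794 with Cdkn1c, 0.281 with Kcnq1 and -0.938 with Kcnq1ot1. Without the 2 clones farthest from the median of Phlda2, 8-3 and 5-2, the values were 0.980, 0.911, -0.50 and -0.838 over 4 clones. These values set clone 12-1 against the low Phlda2 clones, so they rest largely on clone 12-1 and do not check the values over 6 clones. Kcnq1ot1 had r = -0.970 with Slc22a18 and -0.622 with Cdkn1c. The points share the arrays and their scaling.

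**Figure D2:**
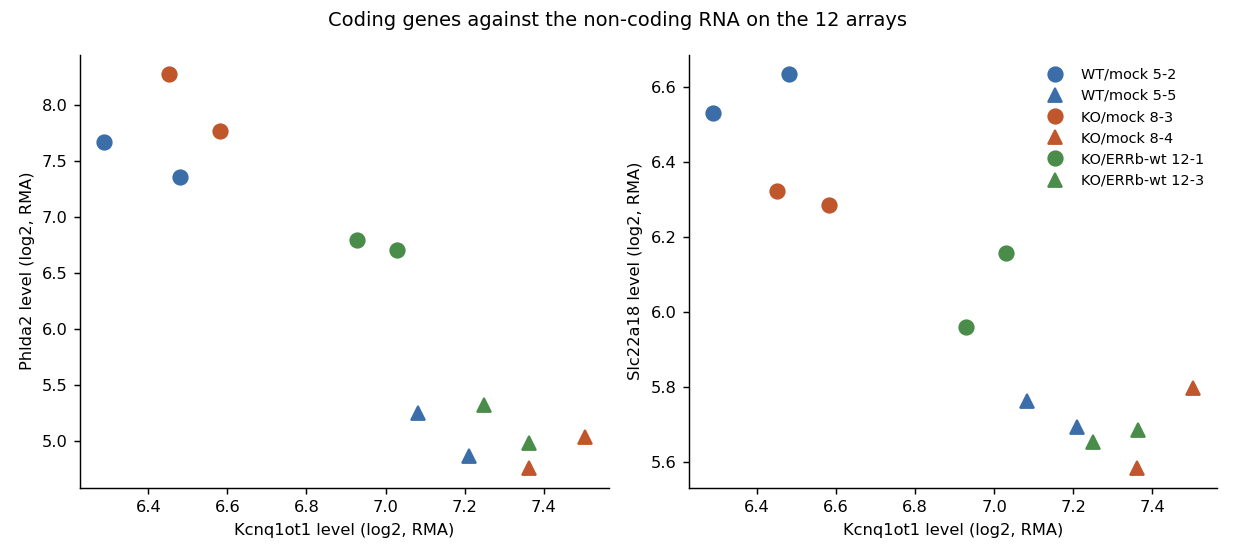
Log2 levels of Phlda2 and Slc22a18 against that of Kcnq1ot1 on 12 arrays, coloured by label, with circles for the lower-numbered and triangles for the higher-numbered clone of each label. Arrays with Kcnq1ot1 levels of 7.08 and more all have Phlda2 levels of 5.32 or less, and the arrays of clone 12-1 lie between the others on the Kcnq1ot1 axis.

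The direction of all 4 genes was set against the rest of the array. Arrays did not overlap and were lower in the higher-numbered clone of all 3 pairs for 190 of 22180 genes (0.857%), Phlda2, Slc22a18 and Cdkn1c among them. The same held in the higher direction for 209 genes (0.942%), Kcnq1ot1 among them. Some genes next to the domain shared this trait. Without overlap in all 3 pairs, Tnfrsf23, Cd81 and R74862 were lower and Trpm5 was higher. With a step of at least 0.3 in every pair, a limit set after these values were seen, 6 genes were lower (0.0271%) and 3 were higher (0.0135%). The 3 coding genes and Kcnq1ot1 were among these 9, and since the members were chosen for such differences nothing is read from the count. The members nearest that limit were Kcnq1ot1, at 0.33 in KO/ERRb-wt, and Cdkn1c, at -0.37 in WT/mock; Kcnq1 fell outside it.

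**Figure D3:**
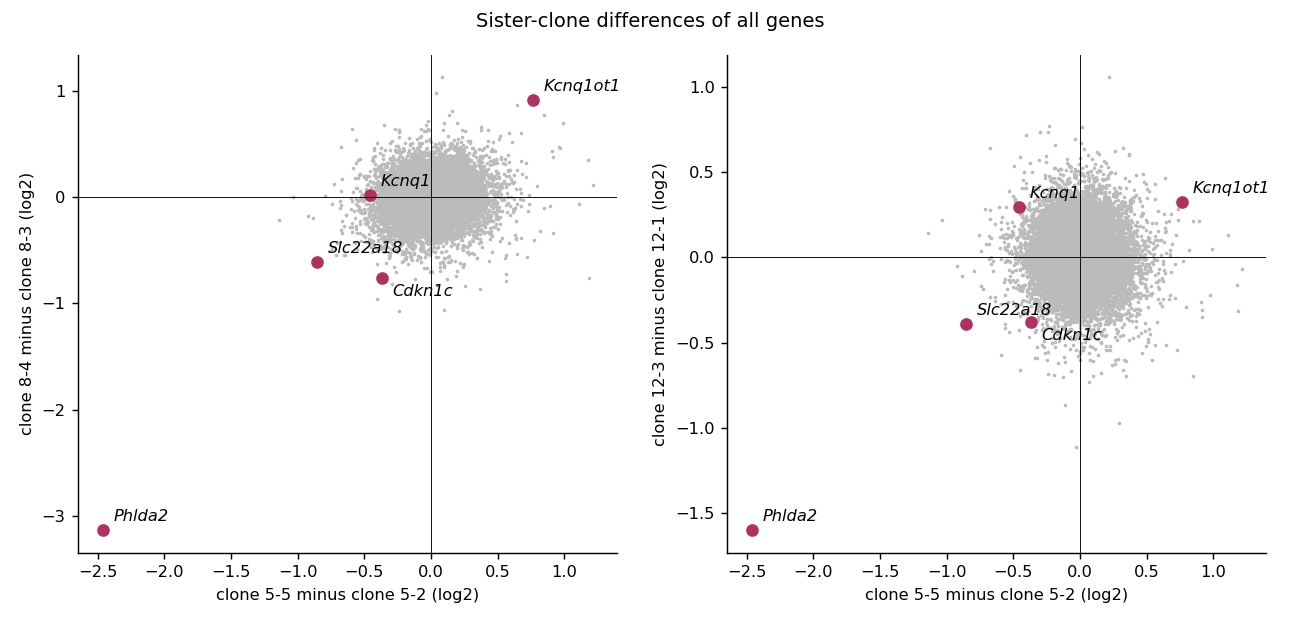
Log2 difference between sister clones for all 22180 genes (grey), clone 5-5 minus 5-2 on the x axis against clone 8-4 minus 8-3 and clone 12-3 minus 12-1 on the y axes, with the 5 domain genes in red. Phlda2 stands farthest from 0 in both panels, at -2.46 against -3.13 and -1.60, and Kcnq1ot1 lies in the opposite quadrant.

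Genes next to the domain in RefSeq order were compared between the same sister clones. Over the 20 measured genes on either side and the gene within it, 41 neighbours in all, the differences ran from -0.43 to 0.39 in WT/mock, from -0.59 to 0.22 in KO/mock and from -0.21 to 0.28 in KO/ERRb-wt. By limma 0 of the 41 neighbours were called in any pair, where 0%, 0.00484% and 0.0169% of all probe sets were called. Of all 22180 genes only 0, 2 and 0 were called in the 3 pairs. A missing call between sister clones, here and below, therefore does not set a gene apart from the 5 domain genes. None passed 0.3 in the same direction in all 3 pairs, although single neighbours differed by more than Cdkn1c in WT/mock. In KO/mock most neighbours differed by more than Kcnq1, which differed by 0.02. Of the 15 measured genes of a fixed list of neighbours, some of them imprinted in placenta, 1, 3 and 0 had an unadjusted p under 0.05 in the 3 pairs, beside 7.53%, 7.06% and 6.67% of all probe sets. The list's medians were -0.08, -0.15 and -0.01, beside 0.01, -0.00 and 0.01 over all genes.

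Ascl2, a transcription factor of trophoblast that is imprinted in the placenta, measured 7.10 and 7.02 in clone 8-3 and 6.24 and 6.70 in clone 8-4. These arrays did not overlap, and the difference of -0.59 ± 0.15 (SE) did not pass the test (adjusted p = 0.538, limma). In the other pairs Ascl2 differed by -0.10 and -0.01. The non-coding gene R74862, which stands between Tspan32 and Cd81 in gene order, measured 6.73 and 6.56 in clone 5-2 against 6.19 and 6.23 in clone 5-5. Its differences were -0.43, -0.31 and -0.18, in the direction of Phlda2, with adjusted p of 0.336, 0.548 and 0.758 by limma; it was singled out after its values were seen. Tnfrsf23, which encodes a decoy receptor of the TNF family, differed by -0.36, -0.36 and -0.21 at a mean level of 4.34, and did not pass either. Cd81, a tetraspanin gene, and Nap1l4, a histone chaperone gene next to Phlda2 in this order, differed by at most 0.12 in size in any pair. 4933417O13Rik, a non-coding gene placed between Kcnq1ot1 and Cdkn1c, differed by 0.18, 0.01 and 0.15.

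**Figure D4:**
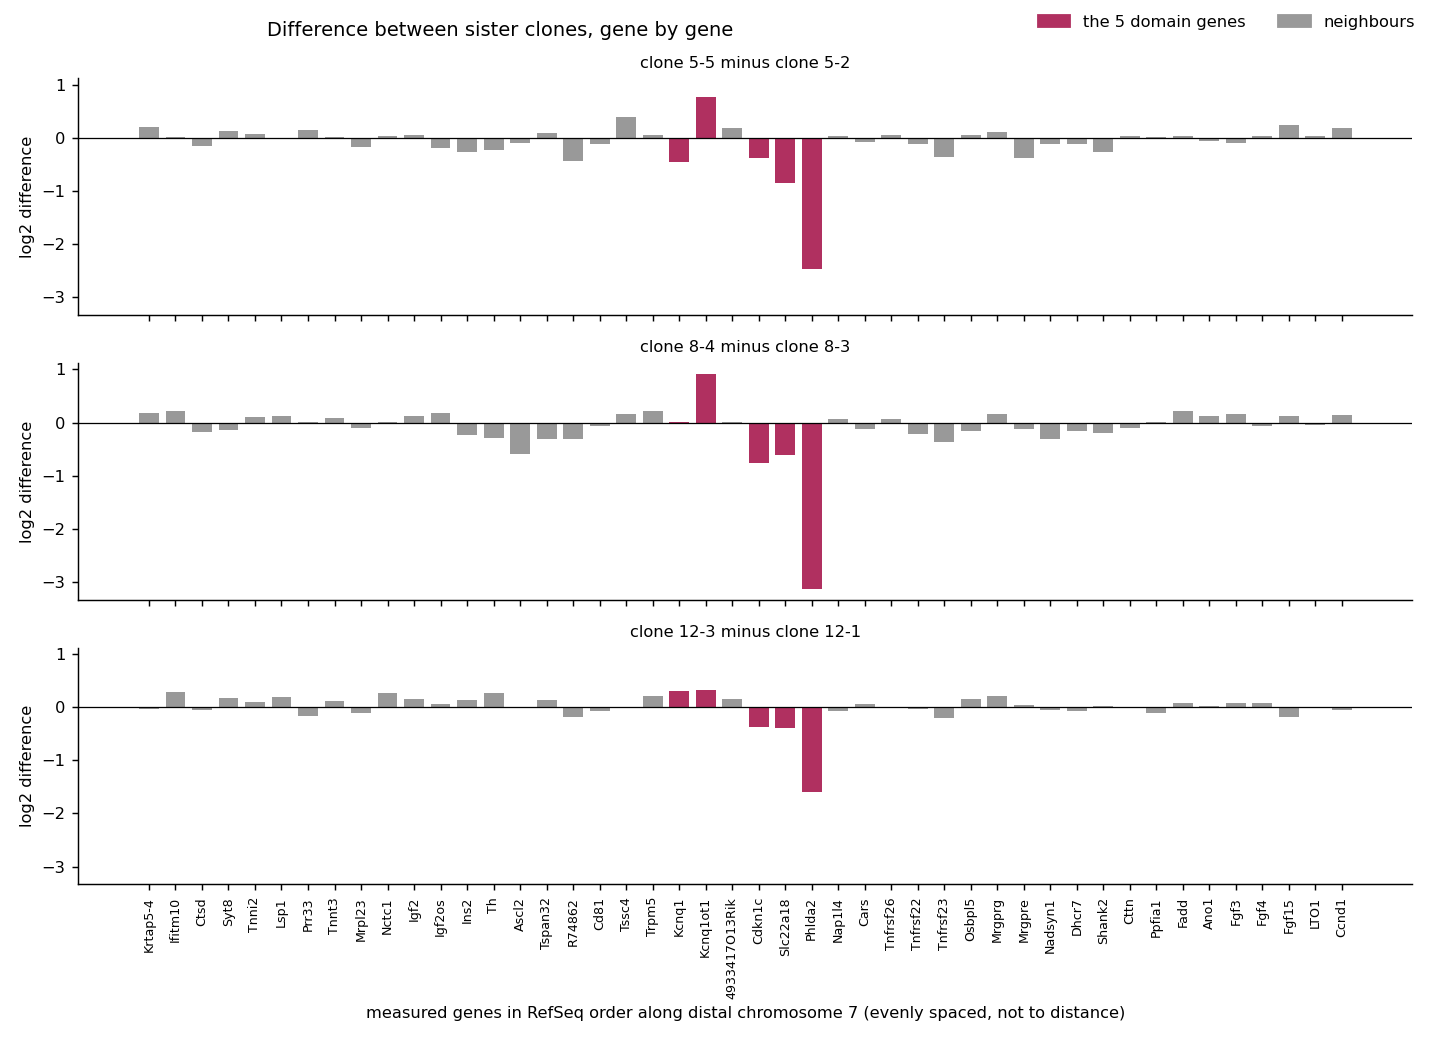
Log2 differences between sister clones (higher-numbered minus lower-numbered) for 46 measured genes in their RefSeq order along distal chromosome 7, evenly spaced, with 1 row per label, the 5 domain genes in red and 41 neighbours in grey. The tall bars belong to Phlda2, between -1.60 and -3.13, and no neighbour extends below -0.59.

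The neighbouring imprinted H19 and Igf2 domain was not called between sister clones either: of 7 genes with a probe set of their own, H19 itself not among them, limma called 0, and 0 had an unadjusted p under 0.05, in each pair. Of 39 measured imprinted genes elsewhere in the genome, 15 maternally and 24 paternally expressed, limma called 1 between sister clones. That gene was Mest, a paternally expressed gene of embryonic growth. It measured 10.97 and 10.83 in clone 8-3 against 12.00 and 12.05 in clone 8-4, and 11.53 to 12.03 on the other arrays. The difference of 1.13 ± 0.079 (SE) had an adjusted p of 0.00623 (limma). The call ended with only the 4 arrays of the label (adjusted p = 0.755, limma) and without clone 8-3 replicate 2 (0.0798), clone 8-4 replicate 1 (0.0851) or clone 8-4 replicate 2 (0.149). In the other pairs Mest differed by 0.08 and -0.04, while Phlda2 was lower in all 3 pairs. At an unadjusted p under 0.05 there were 1, 3 and 1 of the 15 maternally expressed genes. Of the 24 paternally expressed genes there were 3, 2 and 6, beside 7.53%, 7.06% and 6.67% of all probe sets. The paternally expressed genes ranged from -0.67 to 0.39, from -0.28 to 1.13 and from -0.46 to 0.64 in the 3 pairs.

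The factors through which Kcnq1ot1 silences genes, among them Polycomb subunits and the histone methyltransferase gene Ehmt1, differed little between sister clones. Of 12 measured members limma called 0 in each pair, and 0, 0 and 1 had an unadjusted p under 0.05. Their differences ran from -0.06 to 0.13, from -0.18 to 0.16 and from -0.19 to 0.14. Of 12 factors that maintain imprints and 7 of the DNA methylation machinery, 0 were called in any pair. At an unadjusted p under 0.05 these lists had 0, 0 and 0 members and 1, 4 and 0 members, beside 7.53%, 7.06% and 6.67% of all probe sets. The 7 genes of the DNA methylation machinery ranged from -0.16 to 0.30 in WT/mock, from -0.55 to 0.50 in KO/mock and from -0.09 to 0.19 in KO/ERRb-wt, so 4 of 7 passed the unadjusted limit in KO/mock and none the adjusted one; their part in the differences of the 5 genes was not tested. Zfp57, a zinc finger protein that protects methylated imprints, differed by -0.05, -0.06 and 0.13 between sisters (adjusted p = 0.927, 0.935 and 0.815, limma).

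Markers of other cell types were not called between sister clones, and their part in the differences of the 5 genes was not tested. Trophoblast, the tissue in which Phlda2 and Ascl2 are best known, was represented by 9 of 11 listed markers, with array medians between 5.39 and 5.70 and summed log2 levels between 46.8 and 50.1. Of these, 0 were called between sister clones by limma, and 1, 0 and 0 had an unadjusted p under 0.05, beside 7.53%, 7.06% and 6.67% of all probe sets. Their differences lay between -0.30 and 0.49. Primitive endoderm, fibroblast, and mesoderm and neural markers had array medians of 5.21 to 5.61, 5.09 to 5.42 and 5.00 to 5.54, with 0 called in any pair. ES cell markers gave 0 calls between sisters, with 1, 1 and 0 of 12 at an unadjusted p under 0.05. At that limit primitive endoderm markers had 0, 0 and 0 of 8 and fibroblast markers 1, 0 and 0 of 8. Mesoderm and neural markers had 0, 1 and 1 of 7. The same shares of 7.53%, 7.06% and 6.67% of all probe sets stand beside these counts.

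Across the labels, none of the 5 genes was called in any comparison. Limma called 3.87% of all probe sets between KO/mock and WT/mock, 3.21% between KO/ERRb-wt and KO/mock and 15.6% between KO/ERRb-wt and WT/mock, and 0 of the 5 genes in each. At an unadjusted p under 0.05 the shares of all probe sets were 16.2%, 18.7% and 28.1%, again with 0 of the 5 genes. The genes were chosen for differences between sister clones, and those differences enter the spread within labels that these tests use. The choice itself thus made calls between labels unlikely, and nothing is read from their absence. The 3 comparisons share arrays, so their values are not independent.

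Phlda2 averaged 6.29 ± 1.44 (SD, n = 4) on arrays labelled WT/mock, 6.46 ± 1.82 on KO/mock and 5.95 ± 0.94 on KO/ERRb-wt, and the groups overlapped. KO/mock differed from WT/mock by a log2 difference of 0.17, and KO/ERRb-wt differed by -0.51 from KO/mock and by -0.33 from WT/mock, each with an SE of 0.90. The adjusted p were 0.961, 0.813 and 0.855 (limma). The 95% intervals, from -1.79 to 2.14, from -2.47 to 1.45 and from -2.30 to 1.63, were wide in both directions. The arrays of a clone lay close together for Phlda2, so a label rests on 2 clones rather than on 4 independent arrays, and these intervals, from a clone correlation estimated over all probe sets, are narrower than those with clones as units. With the arrays of a clone averaged the SE was 1.25, the intervals ran from -2.88 to 3.23, from -3.57 to 2.55 and from -3.39 to 2.72, and the adjusted p were 0.974, 0.881 and 0.902 (limma).

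Kcnq1ot1 averaged 6.77 ± 0.45, 6.97 ± 0.54 and 7.14 ± 0.20 (SD, n = 4) in the same order of labels. Its differences of 0.21, 0.17 and 0.38 (SE 0.26) had adjusted p of 0.798, 0.786 and 0.397 (limma), and the 95% interval of the largest ran from -0.20 to 0.95. Slc22a18 averaged 6.16 ± 0.50, 6.00 ± 0.36 and 5.86 ± 0.24, with differences of -0.16, -0.13 and -0.29 (SE 0.24) and adjusted p of 0.839, 0.819 and 0.482 (limma). Cdkn1c averaged 5.49 ± 0.23, 5.55 ± 0.47 and 5.80 ± 0.22, with differences of 0.06, 0.26 and 0.32 (SE 0.21) and adjusted p of 0.940, 0.553 and 0.367 (limma). Its 95% interval for KO/ERRb-wt minus WT/mock ran from -0.14 to 0.77. Kcnq1 averaged 4.45 ± 0.27, 4.45 ± 0.10 and 4.39 ± 0.29, and its differences of 0.00, -0.06 and -0.06 (SE 0.16) had 95% intervals within -0.40 and 0.34. With the arrays of a clone averaged, all these intervals were wider. For KO/ERRb-wt minus WT/mock they then ran from -0.52 to 1.27 for Kcnq1ot1 and from -1.11 to 0.52 for Slc22a18. Those of Cdkn1c and Kcnq1 ran from -0.37 to 1.00 and from -0.48 to 0.37. The sign of the label differences turned for all 5 genes in at least 1 comparison when single clones were left out; without clone 8-3, Phlda2 differed by -1.39 between KO/mock and WT/mock.

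**Figure D5:**
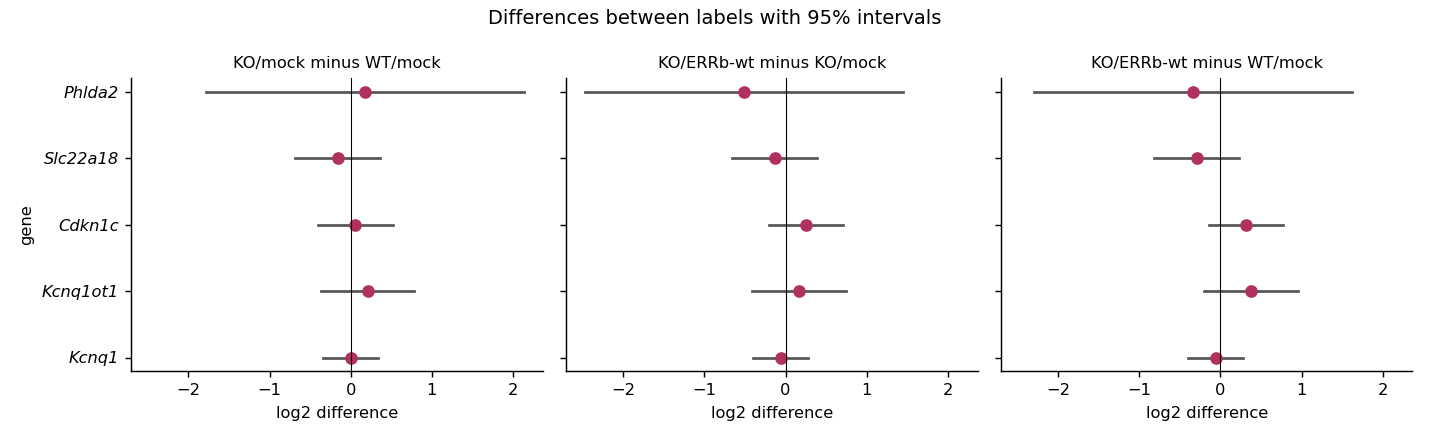
Log2 differences between labels for the 5 genes, with 95% intervals from the model of 3 groups, 1 panel per comparison. Every interval includes 0, and that of Phlda2 is the widest, from -1.79 to 2.14 for KO/mock minus WT/mock. Intervals with the arrays of a clone averaged, not drawn here, are wider for all 5 genes.

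Of the 15 measured neighbours in the fixed list, 1 rose and 3 fell on arrays labelled KO/ERRb-wt against WT/mock, where 20.8% of all genes were called, so the count lies near that of all genes. Limma called 0 in the other comparisons. At an unadjusted p under 0.05 there were 6 and 4 of the 15, a higher share than the 16.2% and 18.7% of all probe sets. Tssc4, a spliceosome assembly factor, rose by 0.60 ± 0.12 (SE, adjusted p = 0.00507, limma), a call lost when the arrays of a clone were averaged (adjusted p = 0.0677, limma). Nadsyn1, a NAD synthesis enzyme, differed by -0.64 ± 0.09 (SE, adjusted p = 0.000563, limma) and Dhcr7, the last enzyme of cholesterol synthesis, by -0.48 ± 0.07 (SE, adjusted p = 0.0011, limma). Tspan32 differed by -0.43 ± 0.12 (SE, adjusted p = 0.0295, limma). That call ended without 5-2 replicate 1 (0.0828), 5-5 replicate 1 (0.0755), 12-1 replicate 2 (0.0628) or 12-3 replicate 2 (0.0623), without clone 5-2, 5-5, 12-1 or 12-3, and with clone averages (0.101). In the H19 and Igf2 domain 1 of 7 genes fell in the same comparison, the mitochondrial ribosomal protein gene Mrpl23, by -0.33 ± 0.07 (SE, adjusted p = 0.00896, limma), and its call ended without clone 5-2 (0.106) or clone 12-3 (0.0884) and with clone averages (0.102).

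Imprinted genes elsewhere were called between labels at rates set beside 5.58%, 4.4% and 20.8% of all genes in the 3 comparisons. Of 15 maternally expressed genes 1, 2 and 5 fell and 0 rose in the 3 comparisons. Of 24 paternally expressed genes 2, 4 and 4 rose and 1, 2 and 3 fell. Plagl1, a paternally expressed zinc finger gene, differed by -0.67, -0.62 and -1.29 (adjusted p = 0.00033, 0.00113 and 1.46e-06, limma). Sfmbt2, a paternally expressed Polycomb-related gene, rose by 1.18, 0.75 and 1.93 (adjusted p = 0.00072, 0.0171 and 9.15e-06, limma). The second of these was lost without 8-3 replicate 1 (0.0522) or 8-3 replicate 2 (0.0521) and without clone 8-3 (0.155) or 12-1 (0.0877). Zfp57 differed by -0.44 ± 0.06, -0.39 ± 0.06 and -0.83 ± 0.06 (SE, adjusted p = 0.00209, 0.00813 and 1.09e-05, limma), and its second call ended without clone 8-3 (0.0978) or 12-1 (0.0549). With the arrays of a clone averaged, the first and second calls of Plagl1, Sfmbt2 and Zfp57 were lost, at adjusted p between 0.0807 and 0.212 (limma). Of 12 silencing factors, 1 rose and 1 fell on KO/ERRb-wt against WT/mock. There 20.8% of all genes were called, so the count lies near that share. In the other comparisons 0 of the 12 were called, with 3 and 3 at an unadjusted p under 0.05, beside 16.2% and 18.7% of all probe sets. The called factors were Ehmt1, which rose by 0.33, and Pcgf3, at -0.24 (adjusted p = 0.00743 and 0.0251, limma). With clone averages both calls were lost (0.100 and 0.175). That of Ehmt1 also ended without clone 5-2 (0.0546) or 12-1 (0.0672). That of Pcgf3 ended with only the groups compared (0.0591), without clone 5-2, 5-5 or 12-3, and without 5-2 replicate 1 or 2, 5-5 replicate 1 or 12-3 replicate 1 or 2 (0.0537 to 0.0694).

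Relatives of the coding genes were set beside them. Of 6 cyclin-dependent kinase inhibitors other than Cdkn1c, limma called 0 between sister clones. At an unadjusted p under 0.05 there were 2, 1 and 1, beside 7.53%, 7.06% and 6.67% of all probe sets. Between KO/ERRb-wt and WT/mock 2 of the 6 were called, in a comparison that called 20.8% of all genes. Cdkn1b, which encodes p27, and Cdkn2c, which encodes p18, fell on KO/ERRb-wt, at -0.25 and -0.58 (adjusted p = 0.0258 and 0.00896, limma). With clone averages both calls were lost (0.143 and 0.109). That of Cdkn2c also ended without clone 5-5 (0.0827) or 12-1 (0.0803). That of Cdkn1b ended with quantile normalization (0.0568), without clone 5-2, 5-5 or 12-1, and without 5-2 replicate 1, 5-5 replicate 1, 12-1 replicate 1 or 2 or 12-3 replicate 2 (0.0544 to 0.0753). Phlda3, a relative of Phlda2 known as a p53 target, rose on KO/ERRb-wt by 0.36 against KO/mock and by 0.33 against WT/mock (adjusted p = 0.0329 and 0.0137, limma). The first call ended without 8-3 replicate 1 or 2, 8-4 replicate 2 or any single array of KO/ERRb-wt (0.0576 to 0.0877) and without clone 8-3, 12-1 or 12-3. The second ended without clone 5-5 (0.0916) or 12-1 (0.088), and both were lost with clone averages (0.224 and 0.103). Phlda3 was not called between sister clones, nor was the other measured relative, and 0 of 2 had an unadjusted p under 0.05 there. Of 6 measured SLC22 transporters and 6 KCNQ and KCNE channel genes 0 were called between sister clones, with 1 SLC22 gene and 0 channel genes at an unadjusted p under 0.05 in any pair.

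Likeness over the 6 clone means was described among 2165 genes with a mean level of at least 6 and a range of clone means of at least 0.5. Slc22a18 was the gene most like Phlda2 (r = 0.928), followed by Fggy (0.812), R74862 (0.796), Inhbe (0.788) and Gpr137b (0.780). Both members were chosen by differences between these clones, so nothing is read from the rank of one for the other. Each also reached the level limit through its high clones, as its low clones lay under 6. Without the 2 clones farthest from the median, r was 0.980 for Slc22a18, 0.783 for Inhbe, 0.134 for Fggy, 0.229 for R74862 and 0.250 for Gpr137b. These values again rest largely on clone 12-1. Kcnq1ot1 was most like Mir290a, Prps2 and Cd300ld3 (0.974, 0.921 and 0.913), and without the 2 farthest clones r was 0.937, 0.807 and 0.350. Slc22a18 was most like Phlda2, R74862 and Inhbe (each 0.928), at 0.980, 0.413 and 0.880 without the 2 farthest clones. Cdkn1c was most like Ascl2 (0.902), Ppp4r4 (0.866) and Ddit4 (0.846), at 0.868, 0.911 and 0.789 without the 2 farthest clones. Kcnq1 was most like Pdlim7 (0.758), Pbx4 (0.752) and Reep5 (0.700), at 0.892, 0.850 and 0.680.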

How the data were processed

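RNA of 12 K3 cell samples was hybridised to whole-transcript Affymetrix arrays, 1 array per sample, per the labels. The authors deposited log2 levels; the submitters' processing notes name RMA and Affymetrix Expression Console. The sources used here give neither versions nor the build behind the array annotation. RMA brings arrays close to a common distribution, so a shift shared by most genes may not show. The array medians as deposited still ran from 5.00 to 5.07. For arrays, the number of samples limits the precision.

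Of 41345 probe sets, 23521 had a single gene symbol, 1814 several and 16010 none. Each gene was the probe set with the highest mean among those with its symbol alone. Labels were compared with limma 3.58.1 (R 4.3.3, statmod 1.5.0) in a model of 3 groups, with clone as a random block (correlation 0.0286), and sister clones in a model of 6 clones. Tests were two-sided, Benjamini-Hochberg adjusted over all probe sets and called at 0.05. Gene order and promoters came from RefSeq (GRCm38.p6).

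The 5 genes and the gene lists were chosen with earlier results of these data known. Of each list, up to 6 called genes with the smallest adjusted p could be named, all neighbours, Esrrb, and the 5 genes most like Phlda2 and 3 most like each other member. Alternatives were no clone block, clone averages, a replicate block, fewer samples in the fit, median centring, quantile normalization, a limit on dim probe sets (mean under 5), a trended robust prior, array weights and leaving out arrays or clones. The pipeline was tested on simulated data.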

Additional observations from a re-analysis of the deposited data

How the results depend on the processing

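Between sister clones, 272 alternative values of the 5 genes moved by less than the SD between arrays pooled over the clones, and 10 moved by more, all with 1 array left out. With single arrays left out Phlda2 ranged from -2.65 to -2.27, from -3.38 to -2.88 and from -1.77 to -1.43 in the 3 pairs, while Kcnq1 turned sign in KO/mock (-0.11 to 0.14) and ranged from 0.033 to 0.56 in KO/ERRb-wt. In KO/mock Slc22a18 ranged from -0.72 to -0.51 and Cdkn1c from -0.97 to -0.56, and in KO/ERRb-wt Slc22a18 from -0.49 to -0.29. Between labels, 0 of 402 alternative values of the 5 genes were called by limma; the lowest adjusted p was 0.0571, for Slc22a18 between KO/ERRb-wt and WT/mock, and 43 values had the other direction. Each gene had 1 probe set, so the mean over probe sets gave no other value. The cause of the changes below was not tested except where fewer samples or probe sets entered a fit. 

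With clone averages the label counts of 1602, 1329 and 6460 probe sets (KO/mock minus WT/mock, KO/ERRb-wt minus KO/mock, KO/ERRb-wt minus WT/mock) became 10, 0 and 2251, and with only the groups compared the second became 777. The sister counts were 0 in WT/mock, 2 in KO/mock and 7 in KO/ERRb-wt. The first became 2 with median centring or quantile normalization, 7 without dim probe sets and 12 with the trended robust prior. The second became 0 with only the 4 arrays of the label, 4 with quantile normalization, 6 without dim probe sets and 13 with the trended robust prior, and the third 0 with only the 4 arrays. At an unadjusted p under 0.05, 3113 (7.53%), 2920 (7.06%) and 2756 (6.67%) probe sets passed.

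Replicate numbers are given within clones and mark no shared culture, and over 12 pairs of clones the deviations of same-numbered arrays correlated at -0.013 to 0.141, so they were not taken to pair the samples. With the replicate block the label counts were 1365, 973 and 6011 and the sister counts 1, 3 and 44, and it ended none of the calls rerun with it, which are those of Esrrb, Mest, Zfp57, Plagl1, Sfmbt2, Tssc4, Nadsyn1, Dhcr7, Tspan32, Mrpl23, Ehmt1, Pcgf3, Cdkn1b, Cdkn2c and Phlda3.

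Leaving out each array in turn gave 888 to 1841, 544 to 1399 and 4822 to 6526 probe sets between labels and 0 to 2, 0 to 3 and 6 to 8 between sisters. The first was 888 without 5-2 replicate 1, 979 without 5-2 replicate 2, 988 without 8-4 replicate 1 and 952 without 8-4 replicate 2. The second was 564 without 8-3 replicate 1, 544 without 8-3 replicate 2, 680 without 8-4 replicate 2, 785 without 12-3 replicate 1 and 618 without 12-3 replicate 2. The WT/mock sister count was 2 without 8-3 replicate 1 or replicate 2, and the KO/mock count 0 without 8-4 replicate 1 or replicate 2. Phlda2 then ranged from -0.43 to 0.73, from -1.07 to 0.10 and from -0.80 to 0.11 in the 3 label comparisons, Kcnq1 from -0.098 to 0.075, from -0.15 to 0.078 and from -0.16 to 0.078, Cdkn1c from -0.074 to 0.25 in the first and Kcnq1ot1 from -0.0071 to 0.34 in the second.

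Leaving out whole clones turned signs, with no call. For KO/mock minus WT/mock the count was 531 without clone 5-2, where Slc22a18 was 0.27 and Kcnq1ot1 -0.17, and 560 without 8-4, where Slc22a18 was 0.15, Kcnq1ot1 -0.25 and Kcnq1 -0.0073. Without 5-5 Phlda2 was -1.06, Cdkn1c -0.13 and Kcnq1 -0.23, and without 8-3 Phlda2 was -1.39 and Cdkn1c -0.32. Kcnq1 was -0.0093 with median centring and -0.011 with quantile normalization. For KO/ERRb-wt minus KO/mock the count was 145 without 8-3, where Phlda2 was 1.06, Slc22a18 0.17 and Kcnq1ot1 -0.29. It was 761 without 12-1, where Kcnq1 was 0.089, and 333 without 12-3, where Phlda2 was 0.29 and Slc22a18 0.062. Without 8-4 Cdkn1c was -0.13. For KO/ERRb-wt minus WT/mock the count was 3245 without 5-2, where Phlda2 was 0.90, Slc22a18 0.14, Kcnq1ot1 -0.0033 and Kcnq1 0.17, and 3931 without 12-3, where Phlda2 was 0.47; without 12-1 Kcnq1 was 0.089. With a clone left out, its label rests on 1 clone. With no background level used here, differences among levels near 5, as for Kcnq1, cannot be set against background.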

Other observations

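Outside the domain, 5 other genes differed by at least 0.3 in the same direction in all 3 pairs of sister clones, and are given as values chosen after they were seen. Gdpd1, a phosphodiesterase gene, was lower in the higher-numbered clone by log2 differences of -0.32, -0.47 and -0.53, and Gpr137b, a lysosomal membrane protein gene, by -0.35, -0.44 and -0.40. Dcpp3 differed by -0.45, -0.47 and -0.66, with arrays that overlapped in at least 1 pair. Pnma5 was higher by 0.96, 0.47 and 0.40 and Gm2663 by 0.42, 0.48 and 0.48, the latter at a mean level of 3.34, below the array medians. Mir290a, a microRNA gene of the ES cell cluster, measured 8.35 and 8.44 in clone 5-2 against 8.67 and 8.98 in clone 5-5, and 8.39 and 8.44 in clone 8-3 against 8.94 and 9.15 in clone 8-4. Its arrays overlapped in KO/ERRb-wt, at 8.44 and 8.84 in clone 12-1 against 8.73 and 8.92 in clone 12-3.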
